A study of Mus musculus with 12 samples.

Results

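The TCRα chains of newly developed thymic Treg were compared between mice that lack IL-15 and mice that lack IL-2. The members were the 4 libraries with the genotype Il15null and the 4 with the genotype Il2null, chosen by their genotype labels, 8 of the 12 libraries of the series. The 4 wild-type (wt) libraries were not compared and are given beside the results as a reference. Each library came from 1 B6 mouse aged 3 weeks, and 100000 cells sorted as CD4+CD8-Thy1.1+GFP+ went into it. All mice carried Rag2-Gfp, Foxp3-Thy1a, the Kaa Tcrb transgene and Tcra+/null, and the mutants carried in addition Il2null (Il2°) or Il15null (Il15°). Both cytokine mutations act in the whole animal, so that Treg and every other cell of the mouse lacked the cytokine. The transgene gave nearly all T cells the same TCRβ chain, and the Tcra null allele left 1 functional Tcra allele, so that the α chain alone told the clonotypes apart. Thy1.1 reported Foxp3, the factor that defines Treg, and GFP marked recent expression of Rag2. The tables hold only Tcra sequences, so that Foxp3 and other defining genes of the sorted cells could not be checked in them.

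A TCRα chain is made by joining 1 of many TRAV segments to 1 of many TRAJ segments. The junction encodes the third complementarity determining region (CDR3), the loop that lies closest to the peptide in the MHC groove, and bases can be removed or added there. IL-2 and IL-15 signal through receptors that share the β and γ chains and support thymocytes that have received a TCR signal on their way to Foxp3 expression. The comparison asked whether Treg that develop with one or the other of these cytokines carry different α chains.

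In-frame sequences made up 12741, 17626, 14557 and 7293 unique molecular identifiers (UMIs, each 1 tagged mRNA molecule) in Il2° replicates 1 to 4, and 17264, 13078, 10340 and 17819 in Il15° replicates 1 to 4. Il2° replicate 4 was the shallowest library, with 56.7% of its clonotypes seen as 1 UMI, where the other 7 ranged from 22.8% to 45.6%. The share that 3 UMIs represent, the upper limit that a count of 0 allows in a library, lay between 0.0168% and 0.0411% of in-frame UMIs. A clonotype was defined by its TRAV segment, its CDR3 amino acid sequence and its TRAJ segment, and 15028 of them were seen over the 8 libraries. Where 4 values are given for a genotype below, they stand in the order of replicates 1 to 4. UMIs measure mRNA, so that more cells of a clonotype and more Tcra mRNA per cell cannot be told apart.

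The sequences on which the comparison turned are those of 4 TRAJ segments and the ends of TRAV segments that encode the first CDR3 residues. Usage of the 4 TRAJ segments passed the test below, with calls that changed with the libraries and settings used. The TRAJ sequences below are GENCODE M21 transcripts on GRCm38, with the part that lies inside the CDR3 in capitals.
TRAJ22: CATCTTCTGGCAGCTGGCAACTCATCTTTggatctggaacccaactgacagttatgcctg
TRAJ24: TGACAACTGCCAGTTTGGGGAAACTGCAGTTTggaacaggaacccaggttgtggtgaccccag
TRAJ5: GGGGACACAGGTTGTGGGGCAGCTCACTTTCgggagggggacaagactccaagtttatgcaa
TRAJ52: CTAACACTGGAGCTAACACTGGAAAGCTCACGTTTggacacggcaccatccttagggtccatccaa
In full germline form they encode SSGSWQLIF, TTASLGKLQF, GTQVVGQLTF and NTGANTGKLTF in the same order. All lie on the plus strand of chromosome 14, TRAJ52 at chr14:54165316-54165381, TRAJ24 at chr14:54195638-54195700, TRAJ22 at chr14:54197248-54197307 and TRAJ5 at chr14:54213777-54213838. The TRAV ends, from the conserved cysteine codon onwards and from the same source, have the codon of CDR3 position 4 in capitals.
TRAV4D-3: tgtgctgctGAGg
TRAV4N-3: tgtgctgctGAGg
TRAV7-2: tgtgcagcaAGC
TRAV14-3: tgtgcagcaAGTg
TRAV1: tgtgctgtgAGGga
In germline form TRAV4D-3 and TRAV4N-3 thus encode CAAE, with an acidic glutamate at position 4, TRAV7-2 and TRAV14-3 encode CAAS, and TRAV1 encodes CAVR, with a basic arginine.

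Summed over its segments, the TRAV4 family held a larger share of the UMIs in every Il15° than in every Il2° library, and the TRAV7 family a smaller one, as a description with no test. TRAV4 chains held 28.5%, 25.2%, 28.4% and 26.5% of in-frame UMIs in Il2°, and 34.7%, 30.4%, 32.5% and 34.9% in Il15°. Every Il15° library was above every Il2° library. The means were 27.2% ± 1.57 in Il2° and 33.1% ± 2.12 in Il15° (SD, n = 4), against 35.4% ± 2.16 in wt.

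TRAV7 chains made up 21.7%, 23.5%, 21.5% and 22.9% in Il2° and 17.8%, 21.3%, 18.4% and 17.7% in Il15°. The highest Il15° library, replicate 2, was just under the lowest Il2° library. TRAV14 was the only other family without overlap, with means of 6.72% ± 0.40 in Il2° and 7.64% ± 0.84 in Il15° (SD, n = 4), and the remaining 9 of the 12 families overlapped between the genotypes. Taken one by one in the test below, 5 TRAV4, 12 TRAV7 and 6 TRAV14 segments were measured deeply enough, and 0 of them passed. An unadjusted p under 0.05 was reached by 3 TRAV4 segments, of which TRAV4-3 itself was lower in Il15°, by 0 TRAV7 segments and by 3 TRAV14 segments, of which TRAV14N-2 was lower, beside 10 of all 75. Their median log2 differences were 0.22, 0.05 and 0.38, beside -0.02 over all 75 segments. These fitted values are scaled by the trimmed mean of M values (TMM), which the family shares are not.

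**Figure D1:**
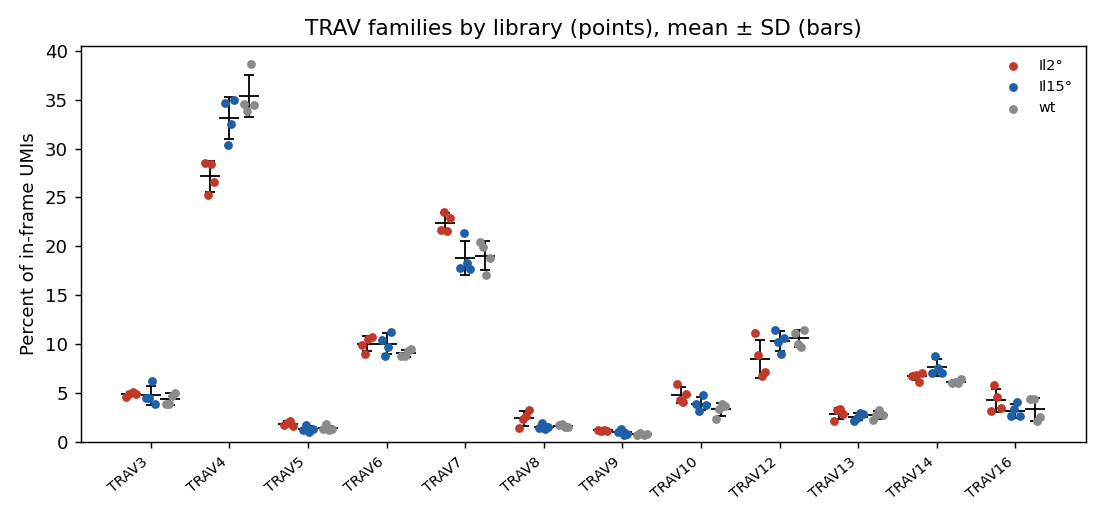
Share of in-frame UMIs (percent, vertical axis) of 12 TRAV families in each Il2°, Il15° and wt library (points), with the mean and SD of 4 libraries (bars). TRAV4 lies between 25.2% and 28.5% in Il2° and between 30.4% and 34.9% in Il15°, and TRAV7 is lower in all Il15° than in all Il2° libraries.

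Single TRAV segments were tested with edgeR's quasi-likelihood test on UMI counts, with Benjamini-Hochberg adjustment. A segment was tested where 4 or more of the 8 libraries held 10 UMIs or more of it. Of the 75 such segments, 0 passed an adjusted p of 0.05 (0% called), while 10 had an unadjusted p under 0.05. DESeq2 called 1 of the 75, TRAV14-3. Among the 6 segments that did not overlap between the genotypes, 3 were higher and 3 were lower in Il15°.

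The most abundant segment, TRAV4D-3, held 13.6%, 10.5%, 14.2% and 13.5% in Il2° and 18.8%, 14.1%, 15.7% and 19.5% in Il15°. The groups overlapped by a narrow margin, Il15° replicate 2 being under the highest Il2° library. The fitted difference, Il15° minus Il2°, was 0.55 on the log2 scale (SE 0.16, adjusted p = 0.0742). The second, TRAV4N-3, held 6.78% ± 0.92 in Il2° and 8.80% ± 0.78 in Il15° (SD, n = 4) without overlap (log2 difference 0.54, SE 0.17, adjusted p = 0.105). TRAV4D-4, whose germline end is the same, held 6.31% ± 0.34 and 6.59% ± 0.38, and the groups overlapped.

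TRAV7-2, with 7.22% ± 1.26 in Il2° and 6.03% ± 0.81 in Il15°, and TRAV7-3, with 6.64% ± 0.86 and 5.27% ± 0.26, completed the 5 most abundant segments (SD, n = 4). TRAV7-3 did not overlap between the genotypes. Their fitted log2 differences were -0.10 (adjusted p = 0.856) and -0.17 (adjusted p = 0.617). The normalization moved these values, since the median log2 difference over the 75 segments was -0.02 with TMM factors and -0.21 without them.

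TRAV14-3 had the smallest p. It held 0.840%, 0.766%, 0.625% and 0.740% in Il2° and 1.15%, 1.52%, 1.02% and 1.20% in Il15°. All Il15° libraries were higher (log2 difference 0.86, SE 0.22, adjusted p = 0.0679), and wt held 0.751% ± 0.190. Its relative TRAV14-2 held 1.02% ± 0.03 in Il2° and 1.42% ± 0.42 in Il15° (SD, n = 4), the latter spread by Il15° replicate 3 at 2.05% (adjusted p = 0.177). TRAV1, the segment farthest from the TRAJ cluster, at chr14:52427928-52428876, went the other way. It held 0.691%, 1.08%, 1.42% and 1.56% in Il2° and 0.278%, 0.551%, 0.677% and 0.673% in Il15°. Every Il15° library was lower (log2 difference -0.94, SE 0.30, adjusted p = 0.105).

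**Figure D2:**
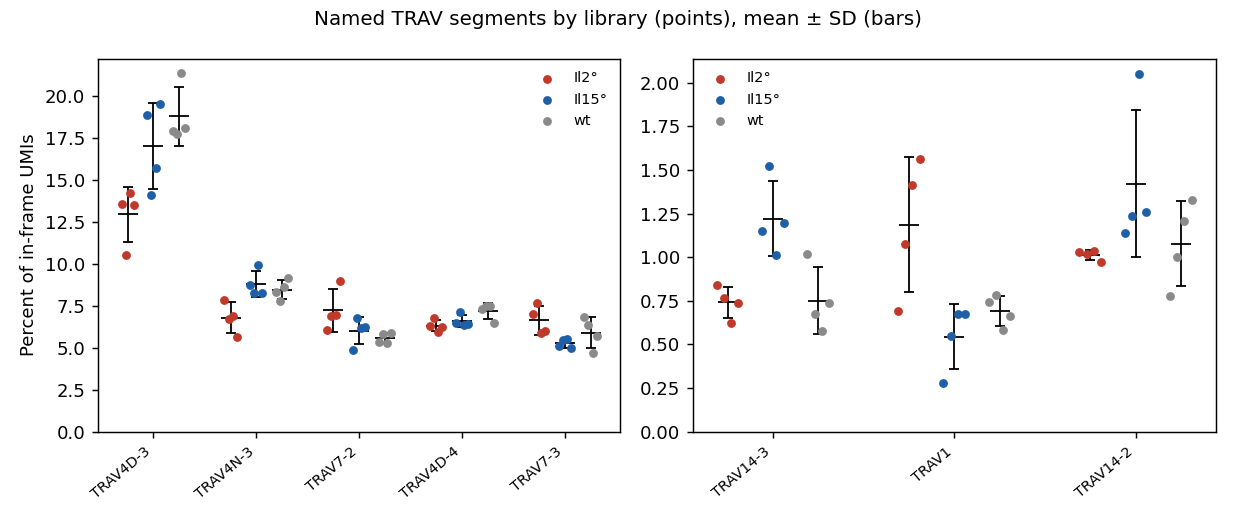
Share of in-frame UMIs (percent) of the 5 most abundant TRAV segments and the 5 with the smallest p, 2 of which are both, by library (points) with mean and SD (bars). TRAV4N-3 and TRAV14-3 are higher and TRAV1 is lower in every Il15° than in every Il2° library, and none of the segments passed the adjusted threshold.

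The mouse Tcra locus holds duplicated blocks of TRAV segments, the D and N copies, whose sequences are nearly identical, so that the assignment of a UMI to 1 copy is uncertain. With copies summed under 1 name, 4 of 43 segments passed (9.3% called), 3 higher and 1 lower in Il15°. TRAV4-3, with its copies, held 21.6%, 17.6%, 21.4% and 19.2% in Il2° and 27.7%, 22.5%, 25.6% and 27.8% in Il15°, without overlap. Its log2 difference was 0.54 (SE 0.15, adjusted p = 0.0127). Like the fitted values above, those of the summed segments are scaled by TMM, which the shares are not. TRAV14-3 with its copies rose from 1.77% ± 0.19 to 2.44% ± 0.34 (SD, n = 4, adjusted p = 0.0262), TRAV6-5 with its copies rose from 2.91% ± 0.46 to 3.77% ± 0.82 with overlap (adjusted p = 0.0385), and TRAV1, which has no copy, fell (log2 difference -0.95, adjusted p = 0.0127).

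Usage of 4 TRAJ segments passed the test between the genotypes, with calls that changed with the libraries and settings used. Of the 40 TRAJ segments tested in the same way, 2 were higher and 2 were lower in Il15° (10% called), and DESeq2 called the same 4 segments. TRAJ24 rose most. It held 0.753%, 0.749%, 0.598% and 0.754% of in-frame UMIs in Il2° and 1.09%, 1.06%, 1.14% and 1.39% in Il15°, without overlap. The log2 difference was 0.69 (SE 0.16, adjusted p = 0.0218), and wt held 1.05% ± 0.08.

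TRAJ22, also among the 5 most abundant TRAJ segments, held 4.83%, 4.15%, 4.53% and 5.47% in Il2° and 6.40%, 5.70%, 6.36% and 6.81% in Il15°. All Il15° libraries were higher (log2 difference 0.39, SE 0.11, adjusted p = 0.0342). TRAJ5 held 0.910%, 1.16%, 0.543% and 0.562% in Il2° and 0.527%, 0.436%, 0.358% and 0.449% in Il15°. The groups did not overlap, although Il2° replicates 3 and 4 were close to Il15° replicate 1 (log2 difference -0.89, SE 0.25, adjusted p = 0.0342).

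TRAJ52, near the TRAV end of the TRAJ cluster, held 0.557%, 0.499%, 0.536% and 0.480% in Il2° and 0.359%, 0.184%, 0.184% and 0.382% in Il15°. The Il15° libraries were lower by 0.90 on the log2 scale (SE 0.27, adjusted p = 0.0389). The next segment by p was TRAJ38, whose Il15° libraries were lower without overlap but which did not pass (log2 difference -0.72, adjusted p = 0.131). The other 4 of the 5 most abundant segments, TRAJ31, TRAJ12, TRAJ9 and TRAJ23, held between 6.18% and 9.34% in Il2° and between 6.65% and 8.98% in Il15°, with overlap in each (adjusted p from 0.358 to 0.946). The calls depended on single libraries, and TRAJ52 kept its call only when Il15° replicate 1 was the one left out. Without Il15° replicate 4, 0 of the TRAJ segments passed, without Il2° replicate 1 or Il2° replicate 2 only TRAJ24 passed, and without Il15° replicate 2 only TRAJ22 and TRAJ24. With each clonotype counted once in place of its UMIs, 0 passed. TRAJ5 and TRAJ52 lost their calls without the filter on low counts, and TRAJ52 lost its call without TMM and with out-of-frame rows included.

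**Figure D3:**
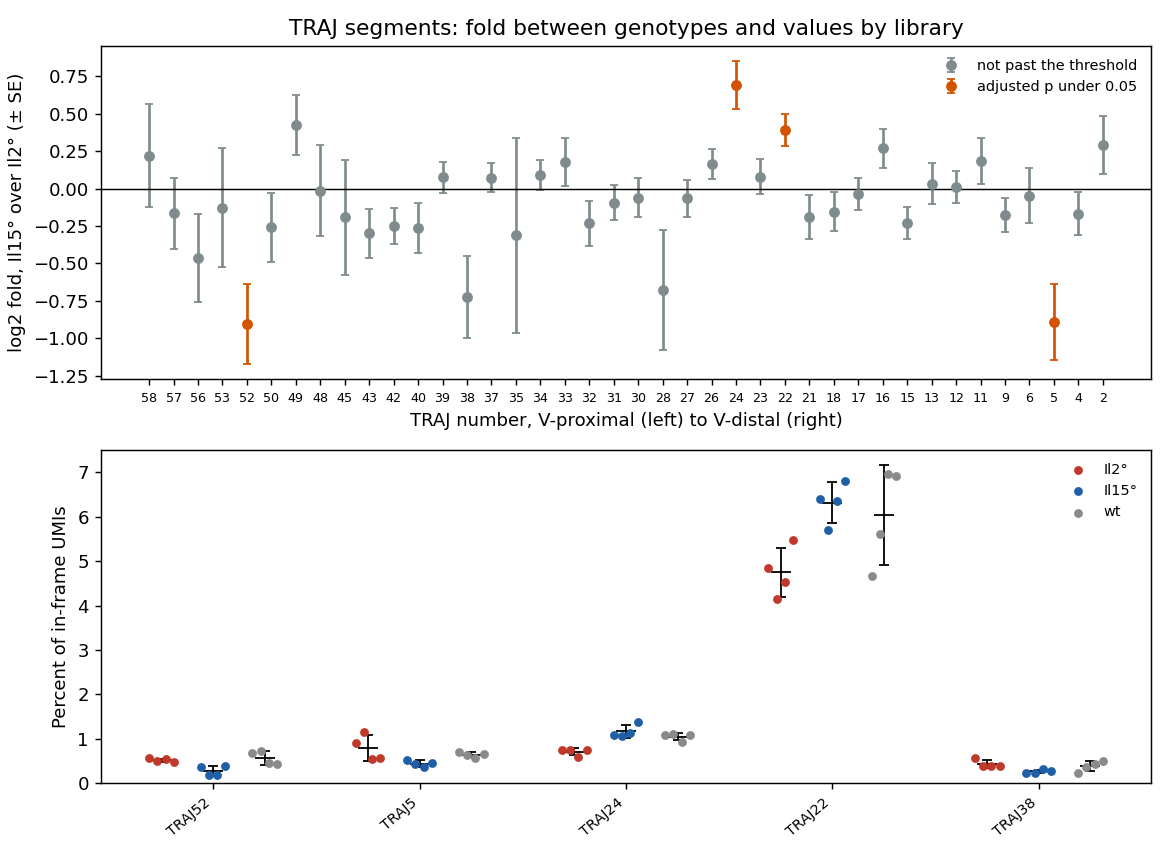
Top, log2 difference of each tested TRAJ segment, Il15° over Il2°, with its SE, ordered by TRAJ number from the V-proximal to the V-distal end, the 4 segments past the threshold in orange. Bottom, share of in-frame UMIs (percent) by library for these 4 and TRAJ38, with mean and SD.

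The place of the rearrangement in the locus did not differ detectably. Successive rearrangements of an allele use TRAV segments nearer to the TRAJ cluster and TRAJ segments farther from the TRAV cluster, so that the TRAJ number falls as rearrangement proceeds. The mean TRAJ number was 23.3 ± 0.74 in Il2° and 23.3 ± 0.32 in Il15° (SD, n = 4, exact Mann-Whitney test, 2-sided, p = 1). TRAJ42 and higher numbers held 6.71% ± 0.82 in Il2° and 6.05% ± 0.46 in Il15°, with 0 segments called higher and 1, TRAJ52, lower of 11 tested. TRAJ22 to TRAJ41 held 47.3% ± 2.38 and 49.9% ± 2.70, with 2 higher and 0 lower of 16. TRAJ21 and lower numbers held 46.0% ± 2.90 and 44.1% ± 2.66, with 0 higher and 1 lower of 13. The median log2 differences of the 3 groups were -0.19, 0.01 and -0.05, beside -0.08 over all 40.

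J-proximal TRAV segments (TRAV16 to TRAV19 and TRAV21, with copies) held 4.03%, 6.98%, 6.06% and 4.73% in Il2° and 3.54%, 4.28%, 4.82% and 3.43% in Il15°. The groups overlapped (difference -1.43 percentage points, exact Mann-Whitney test, 2-sided, p = 0.2), and of its 6 tested segments 0 passed, with a median log2 difference of -0.23. Of the 8 single values compared in this way the adjusted p over the 8 was 0.229 or more for each, and 4 libraries against 4 cannot give an exact p below 0.0286.

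The middle of the CDR3 carried less positive charge in every Il15° than in every Il2° library, a difference that did not pass after adjustment. The mean net charge of the residues between the first 3 and the last 3, counting lysine and arginine as positive and aspartate and glutamate as negative, was 0.902, 0.902, 0.869 and 0.864 per chain in Il2° and 0.787, 0.845, 0.768 and 0.772 in Il15°. All Il15° libraries were lower, with means of 0.793 ± 0.036 against 0.884 ± 0.021 (SD, n = 4, exact Mann-Whitney test, 2-sided, p = 0.0286, adjusted over the 8 values p = 0.229), and wt stood at 0.787 ± 0.016. With each clonotype counted once the difference was -0.013 (exact p = 0.686), and with the first 4 and last 4 residues left out it was -0.0207 (exact p = 0.114). The mean hydropathy was -1.52 ± 0.02 in Il2° and -1.52 ± 0.01 in Il15° (exact p = 0.686).

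Of the 20 amino acids, 5 passed in limma on log2(percent + 0.1), 2 higher and 3 lower in Il15° (25% called). Glutamate made up 2.17%, 2.40%, 2.24% and 2.07% of the middle residues in Il2° and 2.56%, 2.46%, 2.798% and 2.65% in Il15°, without overlap (log2 difference 0.23, SE 0.05, adjusted p = 0.0270). Arginine made up 7.54%, 7.32%, 7.10% and 6.83% in Il2° and 6.19%, 6.76%, 6.40% and 6.36% in Il15°, also without overlap (log2 difference -0.16, SE 0.04, adjusted p = 0.0270). Tryptophan rose (0.971% ± 0.089 to 1.17% ± 0.07, adjusted p = 0.0270), and valine (1.87% ± 0.12 to 1.63% ± 0.09, adjusted p = 0.0288) and phenylalanine (0.650% ± 0.047 to 0.565% ± 0.036, adjusted p = 0.0454) fell, each with a narrow overlap (SD, n = 4). By class, acidic residues held 3.92% ± 0.11 in Il2° and 4.43% ± 0.27 in Il15° (1 of 2 called, higher), and basic residues 16.87% ± 0.26 and 16.04% ± 0.22 (1 of 3 called, lower), both without overlap. Aromatic residues held 8.19% ± 0.21 and 8.22% ± 0.06 (1 of 3 called higher and 1 lower), aliphatic residues 12.18% ± 0.22 and 12.06% ± 0.14 (1 of 5 called, lower), and small or polar residues 58.8% ± 0.51 and 59.3% ± 0.11 (0 of 7 called), with overlap in the 3 classes. The median log2 difference was 0.16 for acidic and -0.05 for basic residues, beside 0.01 over all 20. Without Il2° replicate 3, Il15° replicate 1 or Il15° replicate 4, 0 of the 20 passed, without Il2° replicate 1 only methionine, not among the 5, passed, without Il2° replicate 2 only glutamate passed, and 0 passed with each clonotype counted once. With the first 4 and last 4 residues left out only valine passed, and the log2 difference of glutamate was -0.0242.

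At single positions of the CDR3s of 13 and 14 residues, counted from the conserved cysteine as 1, 4 of 142 residues passed (2.82% called). In CDR3s of 13 residues, glutamine at position 9 held 2.31%, 2.53%, 2.97% and 2.67% in Il2° and 4.23%, 4.18%, 4.25% and 5.06% in Il15° (log2 difference 0.74, SE 0.10, adjusted p = 0.00594). The groups were well apart. In CDR3s of 14 residues, glutamate at position 4 rose from 11.4% ± 1.11 to 16.5% ± 1.31 (adjusted p = 0.0181), tyrosine at position 9 fell from 5.79% ± 0.42 to 4.21% ± 0.22 (adjusted p = 0.0181) and valine at position 11 fell from 4.70% ± 0.53 to 3.20% ± 0.25 (SD, n = 4, adjusted p = 0.0181), all without overlap. Leaving out Il2° replicate 3 left 2 of these 4 called, leaving out Il15° replicate 1 left 1 of them and 1 other, and leaving out Il15° replicate 4 left 1, while 9 were called without Il2° replicate 4 and 7 without Il15° replicate 2. With each clonotype counted once, and also with no minimum percent, only glutamine at position 9 kept its call among the 4.

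Most of these residues were carried by few segments, while arginine was spread, with 28.0% of it in TRAJ31, 16.7% in TRAJ15 and 12.3% in TRAV10, its largest TRAV carrier. Glutamate in the middle residues was also spread over TRAJ segments, the largest share being 10.9% in TRAJ12. TRAV4-3 and TRAV4-4 with their copies held 35.3% and 16.8% of it. TRAJ22, whose germline CDR3 part holds a tryptophan, held 73.7% of the tryptophan in the middle residues. TRAJ21 held 42.9% of the valine and TRAJ5 10.3%, and TRAJ21 held all of the valine at position 11 and 78.0% of the tyrosine at position 9 of the 14-residue CDR3s. TRAJ16 held 57.6% of the glutamine at position 9 of the 13-residue CDR3s, and TRAV4-3 with its copies held 56.0% of it. The TRAV4-3 and TRAV4-4 segments with their copies held 49.0% and 38.4% of the glutamate at position 4. TRAJ16 (1.63% ± 0.19 in Il2°, 1.99% ± 0.28 in Il15°) and TRAJ21 (5.02% ± 0.34 and 4.48% ± 0.97), named here after these values were seen, overlapped and did not pass as segments.

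Values outside the main carrier segments were chosen after the results above were seen and therefore carry no test. All of them overlapped between the genotypes, by margins that differed. Outside the TRAV4 family glutamate made up 1.60% ± 0.23 of the middle residues in Il2° and 1.60% ± 0.23 in Il15°. Tryptophan outside TRAJ22 chains made up 0.310% ± 0.013 and 0.288% ± 0.022, and valine outside TRAJ21 and TRAJ5 chains 0.875% ± 0.079 and 0.835% ± 0.058. Phenylalanine outside TRAJ4 chains, which held 57.8% of it, made up 0.290% ± 0.023 and 0.238% ± 0.026, with only Il15° replicate 4 inside the Il2° range. Arginine outside TRAJ31 chains made up 5.71% ± 0.28 and 4.96% ± 0.33, a difference of -0.752 percentage points, with only Il15° replicate 2 inside the Il2° range. Outside the TRAV4 family it made up 8.32% ± 0.35 and 7.89% ± 0.21. The net charge outside the TRAV4 family was 1.03 ± 0.03 in Il2° and 1.01 ± 0.04 in Il15° (SD, n = 4).

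Values within the TRAV4 family were likewise chosen after these results were seen and carry no test. The net charge of TRAV4 chains was 0.475, 0.514, 0.473 and 0.472 in Il2° and 0.333, 0.401, 0.367 and 0.351 in Il15°, without overlap. Glutamate stood at CDR3 position 4, where the germline codon GAG lies, in 22.2%, 23.4%, 24.2% and 24.8% of the TRAV4 UMIs in Il2° and in 29.9%, 29.4%, 27.6% and 30.1% in Il15°. Every Il15° library was above every Il2° library, and the wt mean was 32.2% ± 0.89. With the 10 most abundant TRAV4 clonotypes left out the means were 22.3% ± 1.27 and 28.0% ± 0.69 (SD, n = 4). By segment the share was 20.5% ± 1.70 against 28.2% ± 4.23 in TRAV4D-3 and 17.8% ± 1.82 against 25.3% ± 3.96 in TRAV4N-3, both without overlap, and 37.0% ± 4.27 against 39.6% ± 5.16 in TRAV4D-4, with overlap. Arginine in the middle residues of TRAV4 chains was 3.88% ± 0.29 in Il2° and 3.18% ± 0.24 in Il15°.

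**Figure D4:**
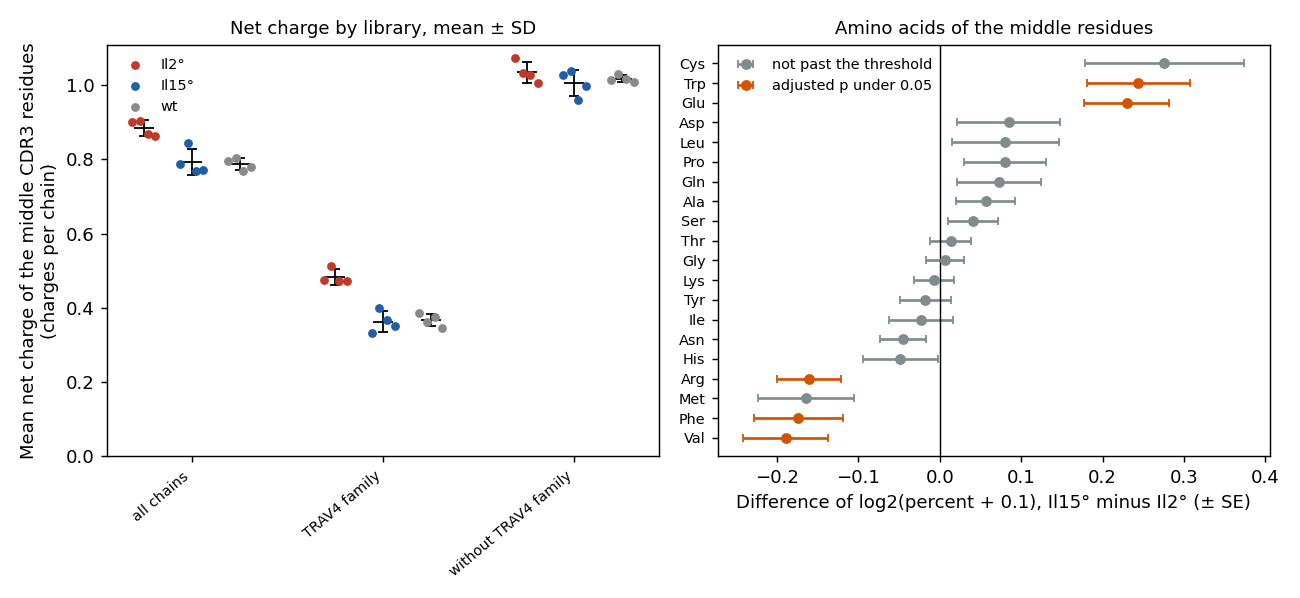
Left, mean net charge per chain of the middle CDR3 residues by library for all chains, for TRAV4 chains and for the others, with mean and SD. Right, difference of log2(percent + 0.1), Il15° minus Il2°, with SE, for each amino acid in the middle residues, those past the threshold in orange. The charge is lower in all Il15° libraries for all chains and for TRAV4 chains, and the groups overlap without TRAV4.

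CDR3 length and added bases did not differ detectably. The mean length was 13.07 ± 0.03 residues in Il2° and 13.095 ± 0.002 in Il15° (SD, n = 4, exact Mann-Whitney test, 2-sided, p = 0.343). In limma 0 of the 7 lengths with a mean share of at least 1% passed (0% called), and 0 had an unadjusted p under 0.05. Lengths of 13 residues held 35.4% ± 1.11 in Il2° and 33.2% ± 1.74 in Il15°, lengths of 14 held 30.0% ± 0.69 and 31.4% ± 1.39, and lengths of 16 held 1.13% ± 0.22 and 1.29% ± 0.13 (adjusted p = 0.331 for each). By the deposited V and J positions, chains without an added base between V and J held 32.5% ± 1.27 in Il2° and 33.2% ± 1.39 in Il15° (exact p = 0.686).

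Among pairs of TRAV and TRAJ segments, tested where 4 or more libraries held 5 UMIs or more, 0 of 471 passed (0% called), with 53 at an unadjusted p under 0.05, and DESeq2 called 4. The most abundant pair, TRAV10 with TRAJ31, held 3.06% ± 1.09 in Il2° and 2.78% ± 0.71 in Il15°, with overlap. TRAV4D-3 with TRAJ37 held 1.47%, 1.17%, 1.70% and 1.77% in Il2° and 2.90%, 1.91%, 2.41% and 2.84% in Il15°, and TRAV12N-3 with TRAJ12 held 0.960% ± 0.227 and 1.76% ± 0.13 (SD, n = 4). Neither pair overlapped between the genotypes, and neither passed (log2 differences 0.69 and 0.86, adjusted p = 0.261 and 0.215). The other 2 of the 5 most abundant pairs, TRAV4D-3 with TRAJ31 and TRAV7-2 with TRAJ27, overlapped (adjusted p = 0.908 and 0.938).

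Of the 5 pairs with the smallest p, 3 joined TRAV and TRAJ segments named above. TRAV1 with TRAJ21 held 0.306%, 0.511%, 0.611% and 0.658% in Il2° and 0.110%, 0.222%, 0.116% and 0.292% in Il15° (log2 difference -1.52, SE 0.38, adjusted p = 0.168). TRAV6-5 with TRAJ22 held 0.423% ± 0.135 and 0.938% ± 0.209 (log2 difference 1.14, adjusted p = 0.182), and TRAV14-3 with TRAJ12 held 0.191% ± 0.088 and 0.486% ± 0.148 (SD, n = 4, log2 difference 1.33, adjusted p = 0.182). In all 3 pairs the groups did not overlap. TRAV6N-6 with TRAJ17 had 0 UMIs in each Il2° library and 7, 6, 6 and 7 UMIs in Il15° (adjusted p = 0.182). Taking 3 UMIs over the 4 Il2° libraries as the floor, 0.00575%, it was at least 7.74-fold higher in Il15° under this copy name. UMIs assigned to its near-identical copies, such as TRAV6D-6, were not added, so that the 0 does not show the pair to be absent from Il2°. The pair met the minimum for testing only through the Il15° libraries, where it is high, so that its p is no support for a difference. With TRAV copies summed, 2 of 429 pairs passed, both higher in Il15°. They were TRAV14-3 with TRAJ12 (adjusted p = 0.0134), without overlap, and TRAV6-5 with TRAJ22 (adjusted p = 0.0300), with a narrow one.

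The fifth pair, TRAV1 with TRAJ33, is the invariant pair of mucosal-associated invariant T (MAIT) cells, which recognise bacterial metabolites on MR1. It had 19, 10, 6 and 18 UMIs in Il2° and 0, 0, 3 and 2 in Il15°, and 16, 28, 5 and 12 in wt. The Il15° libraries were lower than every Il2° library (log2 difference -3.59, SE 1.08, adjusted p = 0.198). The pair met the minimum for testing only through the Il2° libraries, where it is high, so that its p is no support for a difference. Its 12-residue form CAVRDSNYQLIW, shown because its deposited V and J positions leave no base between them, gave 15, 9, 3 and 9 UMIs in Il2° and 0, 0, 0 and 1 in Il15°, all with 1 nucleotide sequence.
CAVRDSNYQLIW: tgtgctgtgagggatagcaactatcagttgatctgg
Without the 12-residue TRAJ33 chains TRAV1 held 1.09% ± 0.40 in Il2° and 0.535% ± 0.178 in Il15° (SD, n = 4), and the groups overlapped. Il2° replicate 1, at 0.542%, then lay within the Il15° range of 0.278% to 0.662%. The invariant chain of natural killer T cells, TRAV11 with TRAJ18 and 15 residues, had 9, 5, 2 and 1 UMIs in Il2° and 11, 15, 1 and 1 in Il15°. Both pairs were rare in every library of the mutants, TRAV1 with TRAJ33 at most 0.247% and the natural killer T chain at most 0.115% of in-frame UMIs, and whether they came from Treg or from other cells in the sort was not tested.

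No single clonotype passed the adjusted threshold. Under the same minimum as for pairs 352 clonotypes were tested, of which 0 passed in edgeR (0% called). Of these, 33 had an unadjusted p under 0.05 and 32 did not overlap, 16 higher and 16 lower in Il15°. DESeq2 called 6, 3 higher and 3 lower. Among the 3 higher, TRAV14-3 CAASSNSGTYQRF TRAJ13 and TRAV4N-3 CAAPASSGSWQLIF TRAJ22 met the minimum only with the Il15° libraries, where they are high. Their calls are thus no support for a difference. Replicates of a genotype varied with a common coefficient of variation of 0.724, against 0.155 for TRAJ segments. The most abundant clonotype, TRAV10 with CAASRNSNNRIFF and TRAJ31, held 3.92%, 1.74%, 1.72% and 2.25% in Il2° and 2.43%, 1.76%, 2.82% and 2.56% in Il15°. Its groups overlapped widely (adjusted p = 0.983), as did those of the other 4 of the 5 most abundant clonotypes (adjusted p from 0.741 to 0.962).

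The 5 clonotypes with the smallest p are shown by their commonest nucleotide sequence, because 3 of them hold TRAJ22 or TRAV14-3 and the others hold TRAV16N or TRAV1. Bases between the V end and the J start given in the deposited tables are in capitals, and where there are none the V and J matches meet or overlap. For TRAJ22 the deposited J start can lie 1 base or more before the GENCODE sequence printed above, so that the capitals hold for the deposited positions only.
TRAV16N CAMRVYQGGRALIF TRAJ15: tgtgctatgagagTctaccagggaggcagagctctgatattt
TRAV6-5 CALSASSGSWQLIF TRAJ22: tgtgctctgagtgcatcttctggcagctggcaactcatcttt
TRAV14-3 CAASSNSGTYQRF TRAJ13: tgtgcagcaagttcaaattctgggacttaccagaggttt
TRAV4N-3 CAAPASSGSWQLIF TRAJ22: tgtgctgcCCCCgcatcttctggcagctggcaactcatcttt
TRAV1 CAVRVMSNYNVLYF TRAJ21: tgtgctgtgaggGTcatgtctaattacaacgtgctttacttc
The 2 TRAJ22 clonotypes hold different TRAV segments and share the last 10 residues, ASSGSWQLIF, of which SSGSWQLIF is encoded by germline TRAJ22.

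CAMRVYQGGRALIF held 0.369%, 0.664%, 0.824% and 0.535% in Il2° and 0.220%, 0.184%, 0.135% and 0.146% in Il15°. All Il15° libraries were lower (log2 difference -1.77, SE 0.38, adjusted p = 0.0518), and wt held 0.291% ± 0.158. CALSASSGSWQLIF held 0.149%, 0.062%, 0.076% and 0.192% in Il2° and 0.533%, 0.245%, 0.600% and 0.449% in Il15°. All Il15° libraries were higher (log2 difference 2.05, SE 0.45, adjusted p = 0.0518), and wt held 0.218% ± 0.041. With TRAV copies summed these 2 clonotypes passed, of 388 tested (adjusted p = 0.0147 and 0.0228).

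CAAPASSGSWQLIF had 12, 0, 13 and 3 UMIs in Il2° and 44, 45, 28 and 45 in Il15°, or 0.056% ± 0.044 and 0.281% ± 0.043 (SD, n = 4, adjusted p = 0.254). It met the minimum for testing only with the Il15° libraries, where it is high, so that its p is no support for a difference. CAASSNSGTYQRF had 4, 0, 1 and 0 UMIs in Il2° and 13, 22, 20 and 19 in Il15° (log2 difference 3.71, SE 1.02, adjusted p = 0.240). It met the minimum for testing only through the Il15° libraries, where it is high, so that its p is no support for a difference. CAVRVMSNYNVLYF held 0.367% ± 0.116 in Il2° and 0.111% ± 0.074 in Il15° (SD, n = 4, log2 difference -1.68, SE 0.50, adjusted p = 0.254). None of the 3 overlapped between the genotypes, and Il15° replicate 4 was just under the lowest Il2° library for the last.

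**Figure D5:**
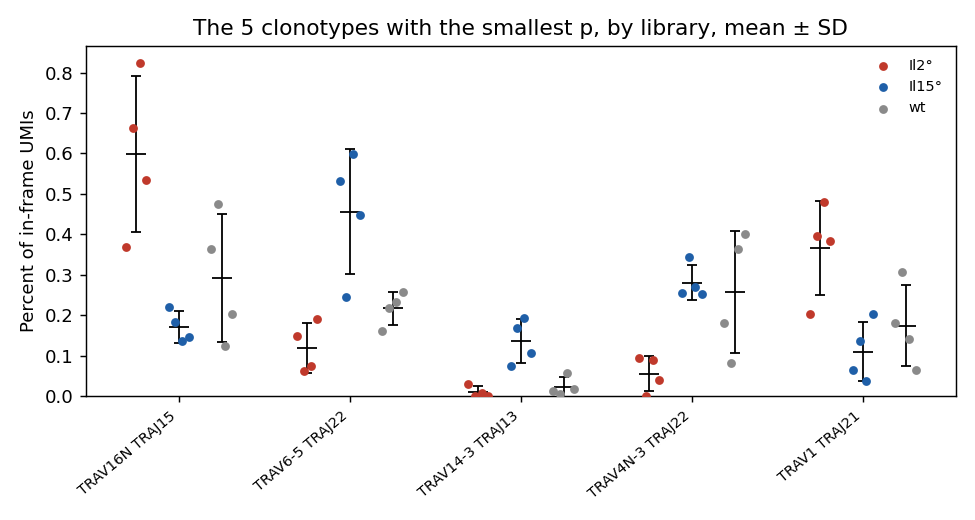
Share of in-frame UMIs (percent) of the 5 clonotypes with the smallest p, named by their TRAV and TRAJ segments, by library (points) with mean and SD (bars). In each of the 5 the Il2° and Il15° libraries do not overlap.

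Clonotypes that recurred in every mouse of a genotype were counted as deposited and at a common depth. There were 423 clonotypes seen in all 4 Il2° libraries and 403 in all 4 Il15° libraries, and 208 were in both lists, 49.2% of the first and 51.6% of the second. These 208 held 30.9% ± 1.93 of in-frame UMIs in Il2° and 31.7% ± 0.50 in Il15° (SD, n = 4). Of the clonotypes in all 4 Il2° libraries, 32 (7.57%) had 0 UMIs in every Il15° library, and of those in all 4 Il15° libraries, 29 (7.2%) had 0 UMIs in every Il2° library. The D and N copies of a TRAV segment were counted apart in these lists. A clonotype with 0 UMIs under one copy name can therefore be present under the name of another copy. With each library drawn to 7293 UMIs, 314.1 clonotypes were in all Il2° and 265.95 in all Il15° libraries, 151.95 were in both lists, and the one-sided counts were 17.4 and 13.5, as means of 20 draws.

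One-sided clonotypes were rare, and the most abundant of each list, named below, were uneven between mice. The 32 together held 0.929% ± 0.268 of in-frame UMIs in Il2°, and the 29 held 0.734% ± 0.373 in Il15° (SD, n = 4). The most abundant of the former, TRAV7-2 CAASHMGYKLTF TRAJ9, had 1, 10, 20 and 16 UMIs, TRAV4D-3 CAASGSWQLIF TRAJ22 had 15, 1, 16 and 12, and TRAV6D-7 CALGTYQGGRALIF TRAJ15 had 19, 4, 4 and 4 in Il2°. Of the latter, TRAV12N-3 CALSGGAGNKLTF TRAJ17 had 2, 27, 1 and 1, TRAV4N-3 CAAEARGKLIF TRAJ23 had 2, 3, 13 and 6, and a TRAV16N clonotype with TRAJ18 and 16 residues had 1, 4, 10 and 6 in Il15°. The floor of 3 UMIs over the 4 libraries of the other genotype was 0.00513% for the Il2° and 0.00575% for the Il15° clonotypes. In wt, 3 of the 32 Il2° and 13 of the 29 Il15° clonotypes had 0 UMIs in every library. The clonotypes were chosen for this pattern, which is a description with no test, and the draws were added after the data were seen.

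The number of clonotypes at a common depth was 2261, 3063, 3210 and 2912 in Il2° replicates 1 to 4 and 2633, 1955, 1695 and 2696 in Il15°, as means of 20 draws of 7293 UMIs. Il15° replicates 2 and 3 were the lowest, and Il2° replicate 1 lay within the Il15° range. The difference of -617 clonotypes did not pass (exact Mann-Whitney test, 2-sided, p = 0.114, adjusted over the 8 values p = 0.457). The 100 most abundant clonotypes held 28.5% ± 2.07 of UMIs in Il2° and 29.5% ± 1.86 in Il15° (SD, n = 4, exact p = 0.686).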

How the data were processed

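Newly developed Treg of 8 mice, 4 Il2° and 4 Il15°, were compared, with 4 wt mice as a reference. Per the study's methods, the authors filtered reads by quality, built a consensus per UMI with pRESTO, kept UMIs seen in more than 1 read, aligned them to Tcra with MiXCR and wrote VDJtools tables. The deposited count of each row is its number of UMIs without normalization. The deposited fraction, that count over the library total, was not used. The submitters' processing notes name the build mm10. No batch is named in the sources used here, and the library numbers of the deposited tables are 3, 5, 6 and 7 for Il2° and 9 to 12 for Il15°, so that genotype and a batch in that order cannot be told apart.

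Rows whose CDR3 held a stop codon or shifted frame (3.82% to 5.50% of UMIs) were left out. Counts were tested with edgeR 4.0.16 (quasi-likelihood test, TMM, Benjamini-Hochberg adjustment, threshold 0.05, only Il2° and Il15° libraries), with SEs derived from the F statistic. Percentages of residues and lengths were tested with limma 3.58.1 on log2(percent + 0.1), positions with a mean of at least 2% being used, and single values with exact 2-sided Mann-Whitney tests (scipy 1.17.1). Alternatives used DESeq2 1.42.0, no normalization, no filter, all 12 libraries, out-of-frame rows, summed V copies, clonotypes counted once or by nucleotides, other pseudocounts, a replicate block and each library left out. R 4.3.3 and Python 3.11.15 were used. The fits were tested on simulated data. The simulated counts had a spread close to that of TRAJ segments here (coefficient of variation 0.155). The spread was 0.291 for TRAV segments, 0.568 for pairs and 0.724 for clonotypes. The simulation thus does not show what the fits recover for these features. Replicates are separate mice, and no pair of libraries of a genotype held the same counts.

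Named features are, for each table of segments, pairs and clonotypes, the 5 most abundant, up to 10 past the threshold without overlap, and, with fewer than 5 past it, the 5 with the smallest p, and for residues and lengths those past the threshold or else the 3 with the smallest p. TRAV families, TRAJ groups by number and residue classes were lists. Of clonotypes seen in all libraries of 1 genotype and in 0 of the other, the 3 most abundant are named. The features, lists and tests were chosen with earlier results of these data known. Positions and germline sequences came from GENCODE M21 (GRCm38), in which 100 of 103 TRAV and 43 of 43 TRAJ names were found. Floors are 3 UMIs and cover counting error only, and a UMI is 1 molecule, not 1 cell.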

Additional observations from a re-analysis of the deposited data

Results flagged for a closer look

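Of 120 groups of 4 libraries checked for 1 library far from the other 3, 6 held one, which is the 1 in 20 that chance gives. In Il15° they were chains without added bases at 35.3% in replicate 3 (others 32.3% to 32.7%), TRAV4D-4 at 7.15% in replicate 2 (6.35% to 6.46%), TRAV14-2 at 2.05% in replicate 3 (1.14% to 1.26%) and glutamine at position 9 of 13-residue CDR3s at 5.06% in replicate 4 (4.18% to 4.25%). In Il2° they were TRAJ24 at 0.598% in replicate 3 (0.749% to 0.754%) and TRAJ38 at 0.565% in replicate 1 (0.378% to 0.391%).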

How the results depend on the processing

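The counts of features past the threshold moved with most alternatives, and the cause was not tested. For TRAV segments (0 of 75) they were 1 with DESeq2, 3 without the filter on low counts, 4 with all 12 libraries in the fit and 4 with copies merged. TRAV14-3 was called in each of these settings. The count was 0 without TMM, with out-of-frame rows included and with each clonotype counted once. Among the fits with 1 library left out, TRAV14-3 was called only without Il2° replicate 1. For TRAJ segments (4 of 40) they were 2 without the filter, where TRAJ5 and TRAJ52 lost their calls, 0 with each clonotype counted once, and 3 without TMM and 3 with out-of-frame rows, where TRAJ52 lost its call. For V-J pairs (0 of 471) they were 4 with DESeq2, 2 of 429 with copies merged and 6 of 188 with each clonotype counted once. For clonotypes (0 of 352) they were 6 with DESeq2, 1 with all 12 libraries and 1 of 362 with out-of-frame rows included. They were 2 of 388 with copies merged and 3 of 304 with CDR3 nucleotides in place of residues. With each clonotype counted once, 1 CDR3 length, 0 middle residues and 1 positional residue were called. Positional residues numbered 7 with a pseudocount of 1 and 2 with no minimum percent. With the first 4 and last 4 residues left out 1 middle residue was called and the log2 difference of glutamate turned to -0.0242, position 4 being among those removed. Leaving out each library in turn gave 0 to 6 TRAV segments, 0 to 4 TRAJ segments, 0 to 8 V-J pairs, 0 to 1 clonotypes, 0 to 7 middle and 1 to 9 positional residues. The 6 TRAV segments came without Il2° replicate 1 and the 8 pairs without Il15° replicate 2.

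The difference in net charge was -0.0125 with each clonotype counted once and -0.0207 with the first 4 and last 4 residues left out. In alternatives chosen after seeing the data, it was -0.0276 without the TRAV4 family, with overlap, and -0.0844 without the 10 named clonotypes, without overlap. It ranged from -0.108 to -0.0825 as each library was left out, where 4 against 3 cannot give an exact p below 0.0571. Values that did not differ detectably turned sign. The share without added bases differed by -0.211 percentage points with each clonotype counted once and by -0.0347 to 1.21 as libraries were left out, the mean TRAJ number by -0.261 and by -0.248 to 0.348 (-0.0131 without Il2° replicate 4 and -0.121 without Il15° replicate 4), and the hydropathy by -0.00677 to 0.00873.

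Same-numbered replicates are different mice, and the correlation of their deviations ran from -0.14 to 0.26 over TRAV segments, from -0.49 to 0.29 over TRAJ segments and from -0.06 to 0.05 over clonotypes, so that the numbers do not pair the libraries. With a replicate block 3 TRAV segments, 0 TRAJ segments and 8 V-J pairs were called, and the net charge difference of -0.0910 had an exact sign-flip p of 0.125, the smallest that 4 pairs allow.

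Clonotypes varied between mice of a genotype with a coefficient of variation of 0.724, which limits what 4 mice against 4 can show. Il2° replicate 4, with 7293 UMIs, limits what can be called absent from it.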
